A study of Mus musculus with 8 samples.

Results

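The small leucine-rich proteoglycans (SLRPs) examined here were 8 genes, *Dcn*, *Bgn*, *Aspn*, *Lum*, *Fmod*, *Prelp*, *Omd* and *Ogn*, taken as a list of gene names. All 8 were found among the 12148 genes measured in dental pulp. The pulp came from first molars of C57BL/6J mice at postnatal day 7, with left and right teeth combined, and was profiled by low-input RNA sequencing after preamplification. There were 4 control libraries that carried Osterix-Cre (numbered 49 to 52) and 4 Tgfbr2cko libraries that carried the same Cre with floxed *Tgfbr2*, the type II receptor of transforming growth factor β (TGFβ), numbered 53 to 56. The Osterix promoter drives Cre in the mesenchyme that forms osteoblasts and odontoblasts, so cells of other origin in the pulp kept their receptor, and the controls share the Cre itself with the mutants. Whether each library came from a separate animal was not given in the sources used here, and the p-values therefore measure the spread between these libraries.

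SLRPs are secreted core proteins built of leucine-rich repeats that bind fibrillar collagen and shape how fibrils assemble, space and cross-link. Class I members (decorin, biglycan and asporin) bind TGFβ, and decorin and biglycan carry chondroitin or dermatan sulfate chains. Class II members (lumican, fibromodulin, PRELP and osteomodulin) carry keratan sulfate or sulfated tyrosines, and class III is represented here by osteoglycin. In the tooth they are found in pulp and predentin, the unmineralized matrix that odontoblasts lay down before dentin forms.

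The genes lie in small groups in the mouse genome. Positions are those of build GRCm38. *Dcn* (chr10:97479609-97518143) and *Lum* (chr10:97565128-97572703) lie on the same strand, 47.0 kb apart. *Aspn* (chr13:49544443-49567565), *Omd* (chr13:49582462-49592822) and *Ogn* (chr13:49608046-49624501) follow each other on the plus strand with gaps of 14.9 and 15.2 kb. All 3 lie within the span of *Cenpp*, a centromere protein gene on the opposite strand, but only *Aspn* shares exonic bases with it (0.297% of its exonic length). *Prelp* (chr1:133910304-133921414) and *Fmod* (chr1:134037254-134048277) are 116 kb apart on opposite strands, and *Bgn* (chrX:73483602-73495933) stands alone. Exons of *Prelp* overlap those of *Gm15851* on the other strand over 9.68% of their length, and whether the counting used strand was not given, so reads in that stretch cannot be assigned to one gene with certainty.

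The upstream sequences of the *Aspn*, *Omd* and *Ogn* row are shown with that of *Bgn*, because the neighbours on chromosome 13 covaried across libraries while *Bgn*, the X-linked member, did not follow them. Each is the 250 bases before the RefSeq start in GRCm38.p6, plus strand, 5′ to 3′. They are *Aspn* at chr13:49544193-49544442, *Omd* at chr13:49582212-49582461, *Ogn* at chr13:49607765-49608014 and *Bgn* at chrX:73483351-73483600. Capitals mark matches, on either strand, to TATAAA (the letters of the TATA box) or GGGCGG (those of the GC box). These are matches of letters at any distance from the start, and their function was not tested.
Aspn: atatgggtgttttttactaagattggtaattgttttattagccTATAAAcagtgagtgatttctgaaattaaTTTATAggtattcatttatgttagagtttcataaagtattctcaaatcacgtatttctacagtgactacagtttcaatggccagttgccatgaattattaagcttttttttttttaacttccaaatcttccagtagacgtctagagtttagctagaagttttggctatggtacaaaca
Omd: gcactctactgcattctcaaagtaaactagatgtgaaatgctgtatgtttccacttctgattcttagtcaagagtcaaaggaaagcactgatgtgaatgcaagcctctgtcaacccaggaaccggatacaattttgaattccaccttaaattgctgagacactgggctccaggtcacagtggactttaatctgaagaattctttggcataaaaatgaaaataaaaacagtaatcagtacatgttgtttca
Ogn: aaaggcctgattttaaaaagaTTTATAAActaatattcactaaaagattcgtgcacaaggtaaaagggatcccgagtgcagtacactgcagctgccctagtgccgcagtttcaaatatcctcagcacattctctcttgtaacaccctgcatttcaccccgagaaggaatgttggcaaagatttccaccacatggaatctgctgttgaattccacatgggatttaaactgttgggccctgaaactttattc
Bgn: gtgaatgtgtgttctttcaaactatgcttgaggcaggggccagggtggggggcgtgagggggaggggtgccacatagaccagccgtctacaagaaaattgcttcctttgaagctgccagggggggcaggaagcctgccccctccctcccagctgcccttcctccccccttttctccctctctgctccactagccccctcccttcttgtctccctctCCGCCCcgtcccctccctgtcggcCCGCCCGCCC
The 3 chromosome 13 windows were AT-rich, with GC contents of 30.0% for *Aspn*, 38.4% for *Omd* and 42.0% for *Ogn*, against a median of 52.4% over 32817 RefSeq windows of the same length. A lower GC content was found in 1.47% of all windows for *Aspn*, 9.06% for *Omd* and 15.9% for *Ogn*. The *Bgn* window was 64.4% GC, a value that 81.6% of windows fell below. TATAAA was matched 2 times in the *Aspn* window and 2 times in the *Ogn* window, where both matches overlap on opposite strands, and in none of the other 4 windows held. It occurs in 12.4% of all windows. GGGCGG was matched 3 times, 2 of them overlapping, in the *Bgn* window alone, and occurs in 32.7% of all windows. The short SMAD element CAGAC, the letters read by the transcription factors of the TGFβ pathway, was matched on either strand 2 times upstream of *Fmod*, 1 time upstream of *Prelp* and not in the 4 sequences printed, beside 42.2% of all windows. The AP-1 element TGANTCA was matched in none of the 6 windows and in 6.75% of all. Windows for *Dcn* and *Lum* were not analysed here.

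Among themselves the SLRPs covered a wide range of levels in control pulp. Levels between genes are given as reads per exonic kilobase scaled to the reads on genes in the library (RPKM), with the mean ± SD of 4 libraries. Exons of all annotated transcripts were merged for the length, giving 5.84 kb for *Dcn*, 6.10 kb for *Bgn*, 2.45 kb for *Lum* and 3.31 kb for *Fmod*. The order below depends on this choice. By reads alone, *Lum* averaged 37.0% of the SLRP reads in controls, *Dcn* 22.4%, *Bgn* 20.3% and *Fmod* 14.4%. *Lum*, which encodes lumican, known for spacing collagen fibrils in the cornea, was the most abundant at 1535 ± 253 RPKM, rank 12 among 12144 genes ordered this way. *Fmod* followed at 445 ± 131, *Dcn* at 385 ± 27.3 and *Bgn* at 333 ± 55.3 RPKM (ranks 68, 86 and 105). *Omd* at 98.2 ± 31.8, *Ogn* at 69.7 ± 26.5 and *Prelp* at 55.3 ± 11.4 RPKM formed a lower tier. *Aspn* was at 3.32 ± 1.01 RPKM, rank 8531, on 29 to 147 reads per library.

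This order had 3 breaks at which the ranges of control libraries did not overlap. *Lum* lay 3.45-fold above *Fmod*, *Bgn* 3.39-fold above *Omd*, and *Prelp* 16.7-fold above *Aspn*. Within the tiers the ranges of neighbouring genes overlapped. Compared within each control library, *Omd* was above both *Ogn* and *Prelp* in 4 of 4, while *Fmod* was above *Dcn* in only 2 of 4 and *Dcn* above *Bgn* in 3 of 4. In Tgfbr2cko pulp *Lum* was again highest at 1585 ± 400 RPKM and *Aspn* lowest at 3.24 ± 1.61 RPKM, both with no overlap with the other genes. The middle and lower tiers met there, since the lowest *Fmod* library (156 RPKM) lay below the highest *Ogn* library (170 RPKM). *Dcn* then ranked above *Fmod* (560 ± 121 against 391 ± 178 RPKM) and *Ogn* above *Omd* (89.8 ± 54.5 against 83.3 ± 35.0 RPKM), and in both exchanges the libraries of the 2 genes overlapped. Within libraries, *Omd* was above *Ogn* in only 1 of the 4 mutants. *Dcn* and *Bgn*, which overlapped in controls, did not overlap in Tgfbr2cko.

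**Figure D1:**
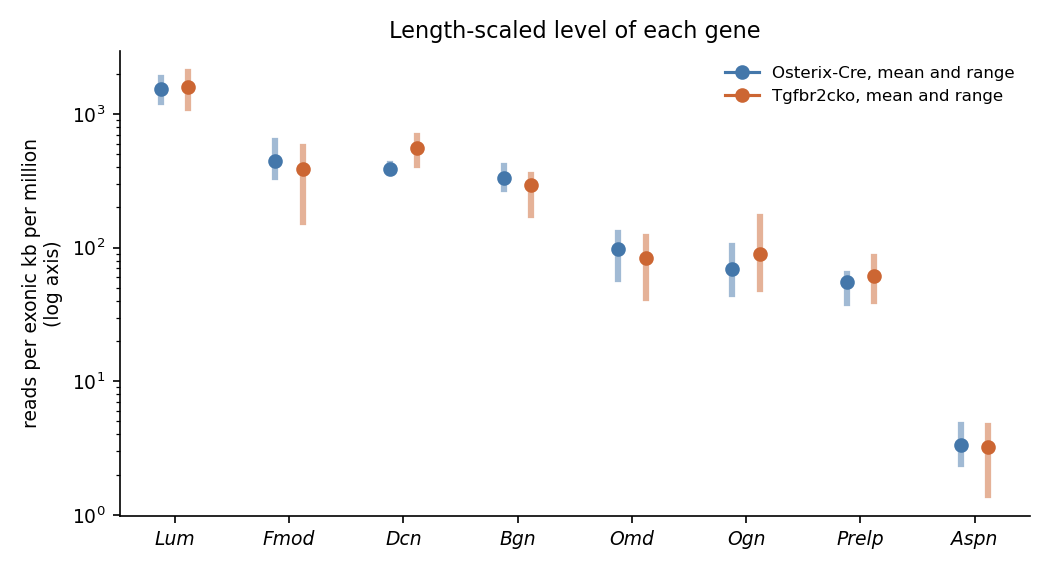
Level of each SLRP gene in RPKM on a log axis, with a point at the mean of the 4 libraries of a genotype and a bar over their range. In controls Lum stands above the others (1240 to 1853 RPKM) and Aspn lies far below them (2.41 to 4.68 RPKM), and the ranges of the genotypes overlap for every gene.

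Together the 8 genes took 0.939% to 1.12% of the reads of control libraries and 0.729% to 1.31% of those of Tgfbr2cko libraries. The means were 1.01% ± 0.0794 and 1.09% ± 0.254 (SD, n = 4 each), and the ranges overlapped. The difference of 0.0771 percentage points was 0.0044 without library 53 and 0.197 without library 56. *Lum* alone gave 32.3% to 40.4% of the SLRP reads in all 8 libraries, and *Aspn* at most 0.149%. The share from *Dcn* averaged 22.4% in controls and 30.6% in Tgfbr2cko, and that from *Bgn* 20.3% and 16.4%. Both shares overlapped between genotypes, with *Dcn* at 22.5% in mutant 53 inside the control range of 19.0% to 24.7%, and *Bgn* at 15.0% in control 50 inside the mutant range of 14.6% to 17.8%.

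To ask whether loss of *Tgfbr2* altered SLRP transcripts, each gene's log2 CPM (reads scaled to the library total, on the log2 scale) was compared between genotypes by limma with an intensity trend, with Benjamini-Hochberg adjustment over all 12148 genes. No SLRP gene passed an adjusted p of 0.05, against 115 of all genes (0.947%). At an unadjusted p under 0.05 there was 1 of the 8, *Dcn*, against 8.38% of all genes (3.3% higher and 5.08% lower in Tgfbr2cko). None was altered by the rule of an unadjusted p under 0.05 and at least 1.5-fold, which 5.77% of all genes met. In no SLRP gene were the genotypes without overlap, against 5.27% of all genes. The mean was higher in Tgfbr2cko for 4 genes and lower for 4, and the median log2 difference was -0.06, beside -0.01 over all genes. In bulk tissue, fewer cells of a type and less RNA per cell cannot be told apart.

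Of the class I genes, *Dcn* encodes decorin, which binds collagen through its core protein and carries a single glycosaminoglycan chain. Measured log2 CPM values were 11.07, 11.06, 11.28 and 11.12 in controls 49 to 52, and 11.52, 11.96, 11.86 and 11.26 in Tgfbr2cko 53 to 56. The controls were close together, and 3 of the 4 mutant libraries lay above all of them, with library 56 inside the control range. The difference was 0.52 (SE 0.23, 95% interval 0.01 to 1.02, or 1.43-fold), at an unadjusted limma p of 0.0445 that became 0.570 after adjustment. The exact 2-sided permutation p over library labels was 0.0571, where the smallest possible with these group sizes is 0.0286. Without library 56 the log2 difference was 0.65, with an unadjusted limma p of 0.00699. Leaving out any one of the 7 other libraries brought the unadjusted limma p above 0.05, to between 0.0520 and 0.131. Averaging libraries that share a number in the sample titles gave a log2 difference of 0.49, with an unadjusted limma p of 0.0877.

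*Bgn* encodes biglycan, the closest relative of decorin, which is abundant in bone and predentin. Its log2 CPM values were 10.98, 10.72, 10.91 and 11.28 in controls 49 to 52, and 11.07, 10.99, 10.93 and 10.06 in Tgfbr2cko 53 to 56. Mutants 53 to 55 lay within the control range and library 56 lay below it. Between the means the difference was -0.21 (SE 0.25, 95% interval -0.76 to 0.34), with a limma adjusted p of 0.979. Without library 56 it was 0.02. *Aspn* encodes asporin, whose core protein has a run of aspartate residues and lacks the glycosaminoglycan chain of its class. Libraries gave log2 CPM values of 3.47, 3.04, 2.69 and 2.52 in controls and 3.44, 2.48, 1.76 and 3.45 in Tgfbr2cko. Control 49 and mutants 53 and 56 were nearly level at the top of both groups, and library 55 was lowest. For *Aspn* the mean difference was -0.15 (SE 0.37, 95% interval -0.95 to 0.66, adjusted p 0.998 by limma).

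Because decorin and biglycan are close relatives with shared ligands, their ratio within each library was also examined, after the values had been seen. The log2 ratio of *Dcn* to *Bgn* was 0.10, 0.34, 0.36 and -0.16 in controls 49 to 52. It was between 0.45 (library 53) and 1.2 (library 56) in Tgfbr2cko, with 0.97 and 0.92 in libraries 54 and 55. The groups did not overlap, with a gap between control 51 and mutant 53 that was small beside the spread within either group. The mean log2 ratio was 0.16 ± 0.24 in controls and 0.89 ± 0.31 in Tgfbr2cko (SD, n = 4 each). This was the only 1 of the 28 SLRP pairs (3.57%) whose ratio separated the genotypes, while 7.44% of all gene pairs did so, so the count among SLRP pairs was below the background.

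Of the class II genes, *Lum* had log2 CPM values of 11.90, 12.15, 11.83 and 11.57 in controls 49 to 52, and 12.31, 12.00, 11.83 and 11.41 in Tgfbr2cko 53 to 56. Library 53 was the highest and library 56 the lowest, with the controls between them. Between the means the difference was 0.02 (SE 0.27, 95% interval -0.56 to 0.61), with a limma adjusted p of 0.998. *Fmod* encodes fibromodulin, which binds collagen and guides its cross-linking by lysyl oxidase. Libraries gave log2 CPM values of 10.14, 11.03, 10.48 and 10.27 in controls and 10.88, 10.61, 10.22 and 9.01 in Tgfbr2cko. Library 56 lay far below the rest, and the other mutant libraries were inside the control range. For *Fmod* the mean difference was -0.30 (SE 0.35, 95% interval -1.06 to 0.46, adjusted p 0.976 by limma), and without library 56 it was 0.09.

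*Prelp* encodes a proline- and arginine-rich member that binds heparan sulfate as well as collagen. Its log2 CPM values were 7.70, 7.85, 7.80 and 7.13 in controls and 8.26, 7.34, 8.10 and 7.18 in Tgfbr2cko. Libraries 53 and 55 lay above all controls and libraries 54 and 56 within their range. The mean difference was 0.10 (SE 0.25, 95% interval -0.43 to 0.64, adjusted p 0.998 by limma). *Omd* encodes osteomodulin, a keratan sulfate proteoglycan of bone and dentin matrix. Its log2 CPM values were 8.05, 8.17, 7.64 and 7.02 in controls and 8.09, 7.28, 6.56 and 7.83 in Tgfbr2cko. Library 55 was the lowest, and the other mutant libraries fell inside the control range. The mean difference was -0.28 (SE 0.31, 95% interval -0.96 to 0.39, adjusted p 0.970 by limma).

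The class III gene *Ogn* encodes osteoglycin, also known as mimecan, a small matrix protein of bone and connective tissue. Its log2 CPM values were 7.69, 8.03, 7.04 and 6.86 in controls and 8.77, 7.65, 6.99 and 7.32 in Tgfbr2cko. Library 53 was above every other library, and the remaining mutants lay within the control range. The mean difference was 0.28 (SE 0.34, 95% interval -0.47 to 1.02, adjusted p 0.980 by limma). Without library 53 the log2 difference of *Ogn* was -0.09.

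**Figure D2:**
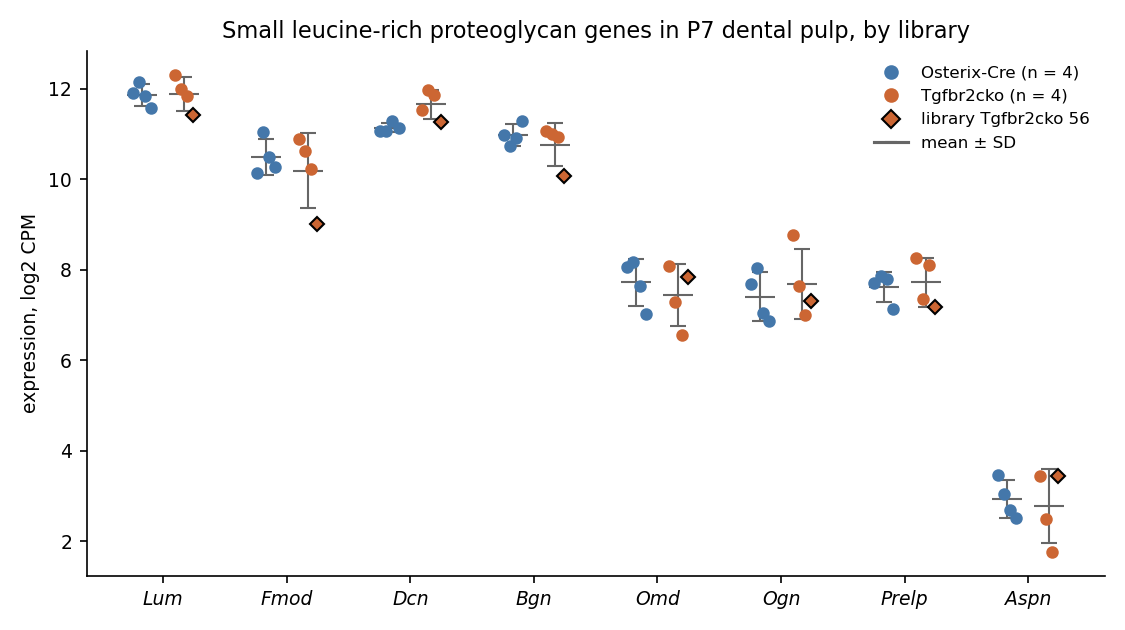
log2 CPM of each of the 8 SLRP genes, with 1 point per library, a diamond for Tgfbr2cko 56, and the mean ± SD of the 4 libraries of a genotype in grey. Library 56 is the lowest point for Bgn (10.06), Lum (11.41) and Fmod (9.01), and 3 of the 4 mutant points lie above all control points for Dcn.

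For 5 of the 8 genes (*Bgn*, *Lum*, *Aspn*, *Prelp* and *Omd*) the 95% interval of the difference lay within 2-fold in both directions. The intervals of *Dcn*, *Fmod* and *Ogn* reached past 2-fold, to 2.02, 0.481 and 2.03 times the control level. These are single-gene intervals, and a p above the threshold does not show that the genotypes have equal levels.

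**Figure D3:**
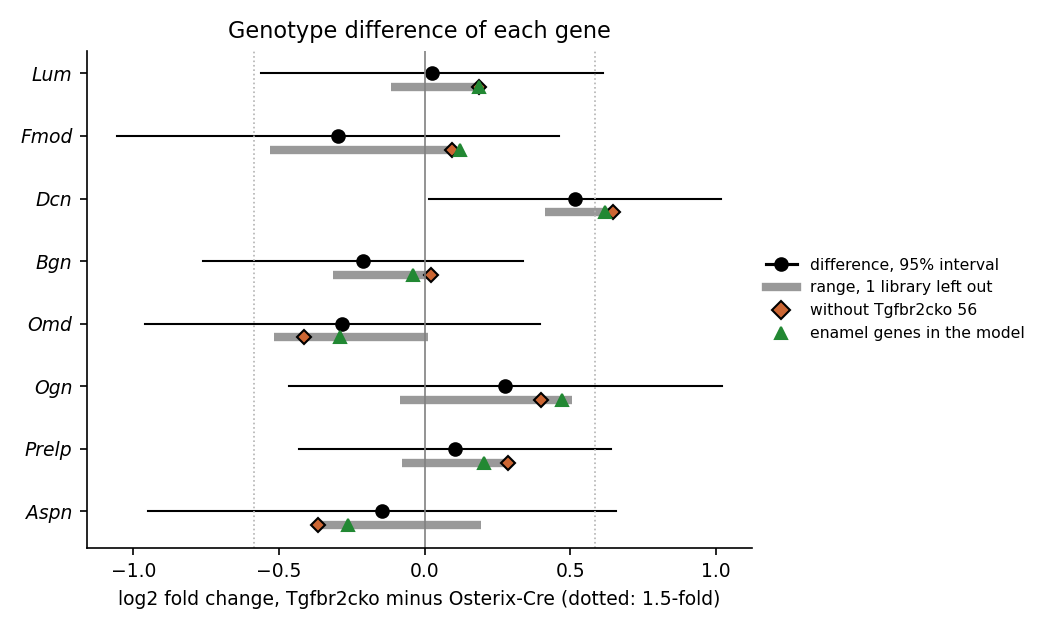
Mean log2 difference, Tgfbr2cko minus Osterix-Cre, for each SLRP gene (black point) with its 95% interval from limma, and below it the range with 1 library left out (grey bar), the value without library 56 (diamond) and the value with enamel genes in the model (triangle); dotted lines mark 1.5-fold. Only the interval of Dcn (0.01 to 1.02) excludes 0, and the grey bars of the 7 other genes cross 0.

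The SLRP genes differed in how tightly libraries of a genotype agreed. The pooled within-genotype SD of log2 CPM was 0.24 for *Dcn*, below the median of 0.28 over all genes. It was 0.31 for *Lum*, 0.37 for *Bgn*, 0.45 for *Prelp*, 0.60 for *Omd*, and 0.65 to 0.67 for *Fmod*, *Aspn* and *Ogn*. Among mutants, *Fmod* spanned 3.66-fold, *Ogn* 3.43-fold and *Aspn* 3.21-fold between libraries, against 1.86-fold, 2.26-fold and 1.93-fold among controls. Library 52 was the lowest control for *Lum*, *Ogn*, *Aspn*, *Prelp* and *Omd*. Library 53 was the highest mutant for *Bgn*, *Lum*, *Fmod*, *Ogn*, *Prelp* and *Omd*.

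Several whole-library measures bear on these values. Libraries held 8682872 to 13539670 reads on genes. The targeted gene *Tgfbr2* was at 7.48 ± 0.22 log2 CPM in controls and 7.20 ± 0.28 in Tgfbr2cko (limma adjusted p 0.790), and the libraries labelled Tgfbr2cko 55 and 56 lay within the control range at 7.16 and 7.61, although a count over the whole gene need not show the deleted part. Transcripts of the 6 enamel matrix genes *Amelx*, *Ambn*, *Enam*, *Amtn*, *Klk4* and *Mmp20*, made by the enamel organ that lies outside the pulp, took 0.396% to 2.94% of reads in 7 libraries and 19.3% in Tgfbr2cko 56. With those reads left out of the totals, the SLRP genes took 1.02% ± 0.0767 of reads in controls and 1.14% ± 0.176 in Tgfbr2cko.

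Among marker lists, 4 odontoblast genes were detected in every library, at 6819 to 18828 summed CPM in controls and 4909 to 11299 in Tgfbr2cko. The 4 osteoblast markers analysed, of 5 listed, summed to 4674 to 5772 CPM in controls and 3077 to 3927 in Tgfbr2cko, with no overlap, and the 3 pericyte markers to 304 to 395 and 190 to 286 CPM, also with no overlap. The sums of the other lists overlapped, and among single genes 5.27% of all did not overlap. The osteoblast list includes *Bglap*, which the paper associates with odontogenesis, so its sum is not particular to osteoblasts. Of the 4 tendon and periodontal ligament markers, tissues in which SLRP genes are also expressed, 2 were analysed, at 82.8 to 128 CPM in controls and 63.8 to 122 CPM in Tgfbr2cko. Library 56 stood apart in further lists, with keratinocyte markers at 2562 CPM against at most 819 in the 7 other libraries and red cell markers at 1948 against at most 1149 CPM. It was also the lowest mutant for odontoblast markers and for macrophage markers, the latter at 221 CPM against 372 to 498 in controls. The part of these markers in the SLRP values was not tested.

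*Fmod* ran opposite to the enamel matrix transcripts across libraries. The correlation of its log2 CPM with the mean log2 CPM of *Amelx*, *Ambn* and *Enam* was r = -0.92 (Spearman's rho -0.90) over the 8 libraries. This correlation was -0.74 without library 56 and -0.72 without libraries 55 and 56. For *Bgn* it was -0.70 over the 8 libraries and 0.11 without library 56, and for *Lum* it was -0.66 and -0.31. The values of *Dcn*, *Aspn* and *Omd* were -0.06, 0.19 and -0.08 over the 8 libraries and 0.10, -0.24 and -0.39 without library 56. With the mean of *Amelx*, *Ambn* and *Enam* as a covariate the log2 difference of *Fmod* between genotypes was 0.12. Whether the enamel transcripts contribute to the *Fmod* values was not tested. These correlations are descriptions over libraries that share a total, in which a larger part for one set of transcripts leaves a smaller part for the rest.

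Pairs of SLRP genes were compared across the same 8 libraries, again as a description. Pearson's r between log2 CPM values ranged from -0.58 to 0.92 over the 28 pairs, with a median of 0.21, and was above 0 for 22. For the 5 pairs that lie in the same gene cluster it ranged from 0.22 to 0.92 with a median of 0.61, and for the 23 other pairs from -0.58 to 0.86 with a median of 0.15. The chromosome 13 neighbours, whose upstream sequences are printed above, followed each other, with r = 0.92 for *Aspn* and *Omd*, 0.70 for *Omd* and *Ogn*, and 0.61 for *Aspn* and *Ogn*. For *Aspn* and *Omd* the value was 0.92 with genotype means removed, 0.94 without library 56, and 0.81 without the 2 libraries farthest from the median of *Aspn*. Both were high in control 49 and mutant 53, and lowest in mutant 55. *Dcn* and *Lum*, neighbours on chromosome 10, gave only r = 0.22.

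The highest value outside a cluster was that of *Lum* and *Fmod*, class II members that bind overlapping sites on collagen. Their r was 0.86, with 0.91 after genotype means were removed and 0.72 without the 2 libraries farthest from the median of *Lum*. *Lum* gave r = 0.80 with *Ogn* and 0.75 with *Prelp*, and without the same 2 libraries these were 0.89 and 0.44. *Dcn* ran against *Aspn* and *Omd*, with r = -0.58 for each, but without the 2 libraries farthest from the median of *Dcn* these were 0.28 and 0.14, so the negative values do not hold without those libraries. With genotype means removed, and all 8 libraries kept, they were -0.78 and -0.62. For *Bgn* and *Fmod*, r was 0.67 with library 56 and -0.45 without it.

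**Figure D4:**
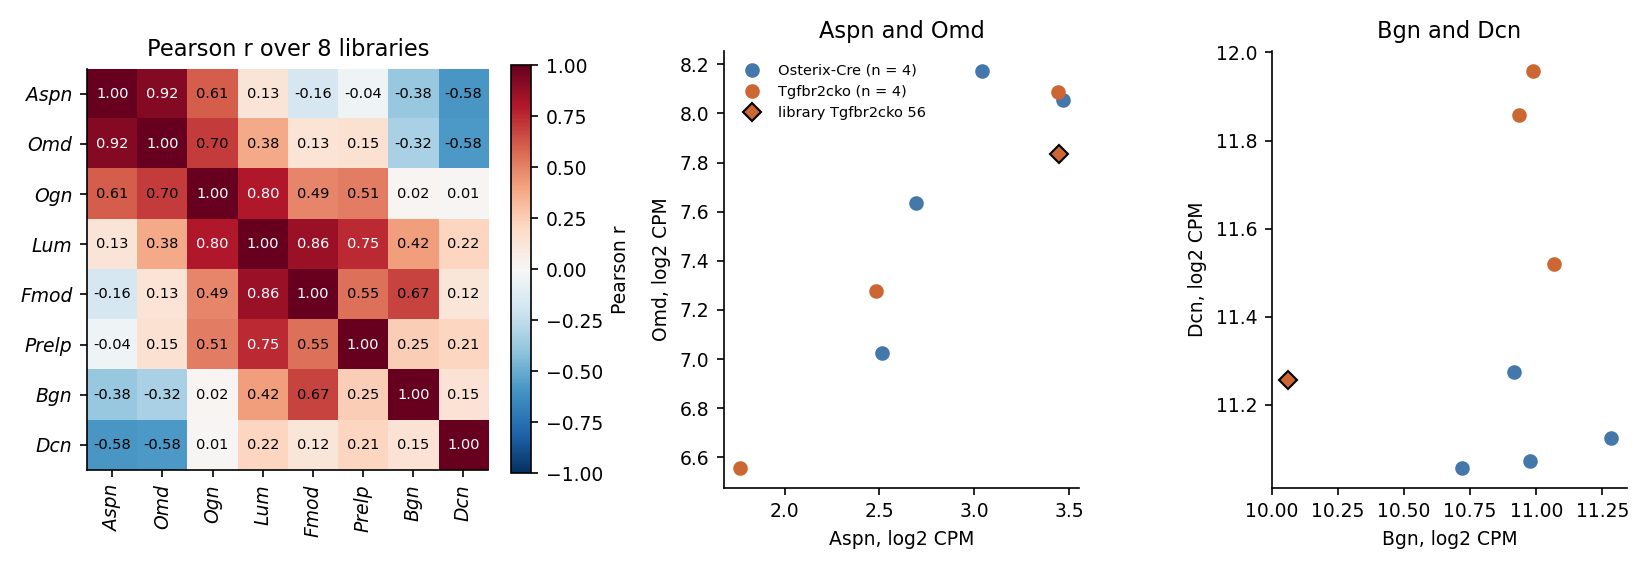
Left, Pearson's r between log2 CPM values of each pair of SLRP genes over the 8 libraries. Middle and right, log2 CPM of Omd against Aspn (r = 0.92) and of Dcn against Bgn (r = 0.15), with 1 point per library coloured by genotype and a diamond for Tgfbr2cko 56, which lies apart on the Bgn axis at 10.06.

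The genes whose log2 CPM was most like that of each SLRP gene, by Pearson's r over the 8 libraries, were taken as the 3 highest. For *Dcn* they were *Fbln7*, *Amer1* and *Col24a1* (r = 0.98, 0.97 and 0.97), of which *Fbln7* encodes a fibulin of the tooth matrix and *Col24a1* a fibrillar collagen. For *Lum* they were *Mmp2*, which encodes gelatinase A, *Osbpl5* and *Sh3gl1* (r = 0.99, 0.98 and 0.98). For *Fmod* they were *Fam19a5*, *Ldhb* and *Mapk9* (r = 0.99, 0.98 and 0.98), and for *Omd* the cell division genes *Ube2c* and *Uhrf1* with *Cbx2* (r = 0.97, 0.96 and 0.96). The third gene for *Aspn* was *Omd* itself (r = 0.92), after *Gsto1* and *Zmiz1* (r = 0.94 and 0.93). For *Bgn* they were *Klhdc9*, *Slc17a5* and *Gstz1* (r = 0.97, 0.96 and 0.95), for *Ogn* *Dusp11*, *Kbtbd2* and *Naaa* (0.97 each), and for *Prelp* *Abi3*, *Agt* and *Mttp* (0.98, 0.97 and 0.97). These likenesses are descriptions over the same 8 libraries, which share their totals. As the highest values among all genes measured, they were high for every SLRP gene, even *Aspn* on 29 to 147 reads. No background was computed for them. *Fbln7* and *Col24a1* also had higher means in Tgfbr2cko, by 0.96 and 0.92, as *Dcn* did, so genotype enters their likeness to it.

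To place the SLRP genes in their pathway, 94 further genes in 11 lists were examined, of which 75 were analysed. None passed an adjusted p of 0.05 by limma, 14 had an unadjusted p under 0.05 (18.7%, against 8.38% of all genes), with 5 higher and 9 lower in Tgfbr2cko, and 11 were altered by the 1.5-fold rule (14.7%, against 5.77% of all genes). The genotypes did not overlap for 10 of the 75 (13.3%, against 5.27% of all genes). The median log2 difference over the lists was -0.06. These lists were chosen with earlier results of these data known, so the shares describe them and do not test the pathway. Without library 56, 18 of the 75 had an unadjusted p under 0.05 (24.0%, against 9.58% of all genes). Of these, 13 were among the 14 above, and 5 were not (*Csgalnact1* at 0.73, *Tpst1* at 0.53, *Pcolce2* at -1.12, *Mmp14* at 0.34 and *Tgfb2* at 0.41).

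Of 10 other SLRP genes, 4 were analysed, and Epyc, Kera, Optc, Chad, Nyx and Podn were not among the 12148 genes. *Tsku*, which encodes tsukushi, a secreted modulator of BMP and Wnt signalling, was the only one of the 4 at an unadjusted p under 0.05. Measured log2 CPM values were 5.74, 6.00, 6.10 and 6.31 in controls and 6.80, 6.70, 6.5 and 6.75 in Tgfbr2cko. Every mutant library lay above every control. The difference was 0.65 (SE 0.15, 1.57-fold, adjusted p 0.0724 by limma), and the unadjusted p was under 0.05 in all 18 alternative fits. *Podnl1*, *Ecm2* and *Chadl* differed by 0.12, -0.06 and 0.02, and by -0.079, 0.19 and 0.20 without library 56.

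Among the enzymes that build and modify the chains, 1 of 12 linker and chain genes analysed and 3 of 11 dermatan and chondroitin sulfate genes had an unadjusted p under 0.05. *Pxylp1*, a phosphatase that acts on the linker xylose, was at 7.30 ± 0.23 log2 CPM in controls and 8.08 ± 0.43 in Tgfbr2cko (difference 0.78, limma adjusted p 0.118). *Chst13*, a chondroitin sulfotransferase, had values of 5.30, 4.59, 5.39 and 5.20 in controls and 3.68 to 4.61 in Tgfbr2cko, with control 50 level with mutant 54 and all others apart (difference -1.03, SE 0.23, limma adjusted p 0.0619). *Dsel*, a relative of the epimerase that makes dermatan sulfate, differed by -0.71 with no overlap, and *Chst12* by -0.52. Without library 56 *Chst12* differed by -0.28, with an unadjusted limma p of 0.0933. Of 3 keratan sulfate genes, *B3gnt7*, which extends the chain, differed by 0.89 on only 20 to 68 reads per library (limma adjusted p 0.241). *Chst1*, a keratan sulfotransferase, ranged from 104 to 4780 reads with the highest value in library 56, and differed by 1.37 with that library and by 0.38 without it. Of the tyrosine sulfotransferases, *Tpst1* differed by 0.33 and *Tpst2* by -0.03, both at an unadjusted limma p above 0.05. Without library 56 *Tpst1* had an unadjusted limma p of 0.00246, and 6 of its 18 alternative fits had a p under 0.05.

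Genes for processing and cleavage of SLRP core proteins gave 1 of 3 and 0 of 7 at an unadjusted p under 0.05. The former was *Bmp1*, the proteinase that removes the propeptides of procollagens and of biglycan, at 8.25 ± 0.16 in controls and 7.71 ± 0.42 log2 CPM in Tgfbr2cko (difference -0.54, limma adjusted p 0.338). *Pcolce2*, which encodes an enhancer of that proteinase, differed by -0.47 with all libraries and by -1.12 without library 56 (unadjusted limma p 0.00525). Among the proteinases of the latter list the largest differences were those of *Adamts1* (0.39) and *Mmp9* (0.34), which were 0.085 and -0.050 without library 56. Of the 10 collagens that SLRPs bind, 2 had an unadjusted p under 0.05. *Col5a1*, a chain of the collagen that starts fibrils, had values of 9.53, 9.21, 9.54 and 9.32 in controls and 8.80, 8.77, 8.72 and 8.65 in Tgfbr2cko. The mutants were tightly grouped below every control (difference -0.66, SE 0.15, limma adjusted p 0.0602). *Col1a2* differed by -1.22 (SE 0.43, limma adjusted p 0.316).

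Of 9 cross-linking genes, 3 had an unadjusted p under 0.05. *Lox*, the lysyl oxidase that cross-links collagen, had values of 8.18, 8.07, 8.56 and 9.25 in controls and 7.21, 7.67, 7.68 and 6.99 in Tgfbr2cko, with no overlap (difference -1.13, SE 0.25, limma adjusted p 0.0546). Its relative *Loxl3* differed by -0.87 (SE 0.21, limma adjusted p 0.0756), also with no overlap, and the collagen prolyl hydroxylase subunit gene *P4ha1* by 0.58 (limma adjusted p 0.321). Among 9 receptors, *Cd44*, a hyaluronan receptor, differed by 0.61 (limma adjusted p 0.363) and by 0.35 without library 56. Among 5 TGFβ family ligands, *Tgfb1* was at 5.08 ± 0.23 log2 CPM in controls and 4.37 ± 0.38 in Tgfbr2cko (limma adjusted p 0.179), with no overlap. The marker sums for osteoblasts and pericytes given above were also lower in every mutant library than in every control, and their part in these values was not tested.

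**Figure D5:**
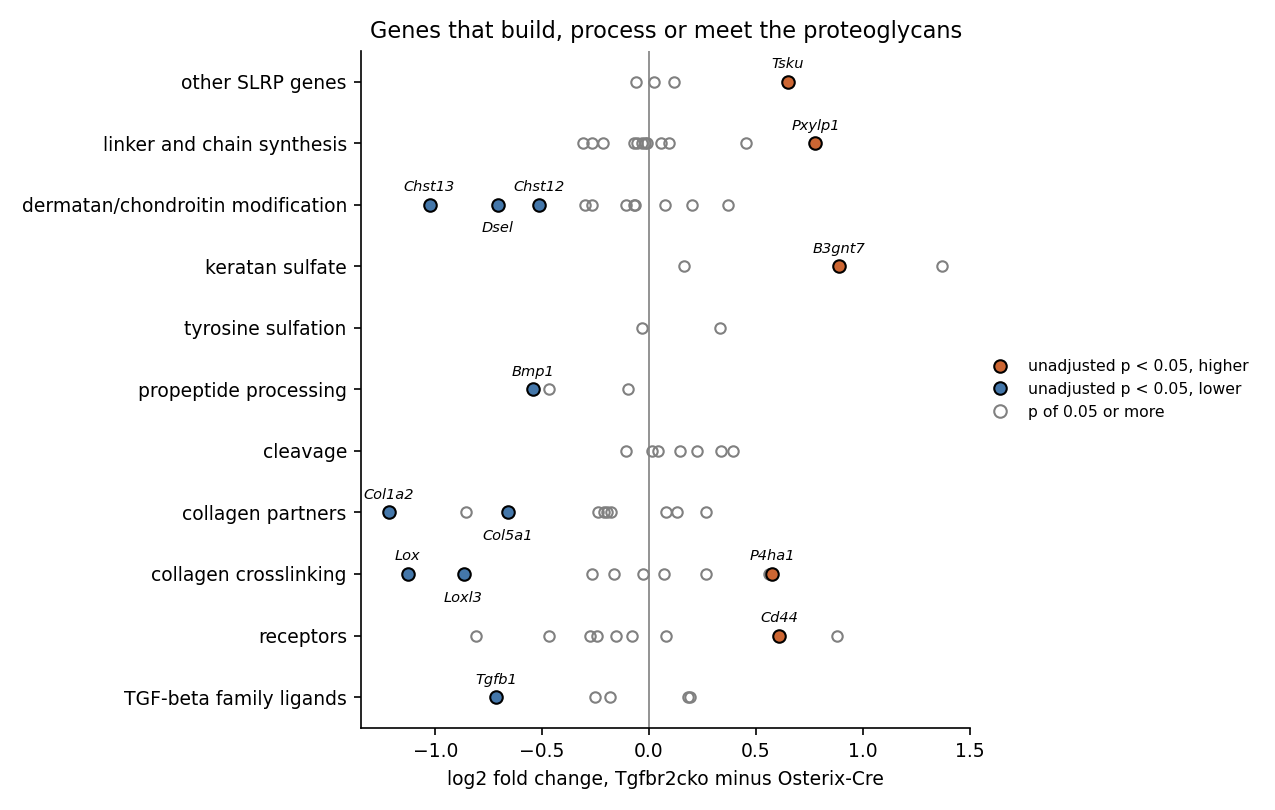
Mean log2 difference, Tgfbr2cko minus Osterix-Cre, of the 75 genes analysed in the 11 lists related to SLRPs, with 1 row per list and filled, named points for an unadjusted limma p under 0.05. Filled points lie on both sides of 0 (5 higher, 9 lower), with Lox at -1.13, Col1a2 at -1.22 and Chst13 at -1.03 farthest to the left.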

How the data were processed

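RNA from the dental pulp of 8 samples was amplified with a low-input kit and sequenced. The submitters' processing notes name fastp 0.21.0, HISAT2 2.1.0, featureCounts of Subread 2.0.1, limma and the build GRCm38.p5. By the study's methods the annotation was GENCODE M14, and the authors kept genes that the CLEAR workflow, made for low-input libraries, calls reliably quantifiable. The deposited values were log2 CPM values (log2 counts scaled to library size) made by the authors with limma's voom, after adding 0.5 to each count, and the whole reads behind them were recovered (largest distance from a whole number 3.61e-08). One value per gene and library was used, for 12148 genes, with symbols from GENCODE M21 for 12144.

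Groups followed the genotype in the labels. Genotypes were compared with limma 3.58.1 (R 4.3.3) on the deposited log2 values with an intensity trend and no covariate, and p-values were adjusted by Benjamini-Hochberg over all genes. A gene was altered at an unadjusted p under 0.05 and 1.5-fold. Exact permutation tests were 2-sided over library labels. The script was tested on simulated data. Depth was 8682872 to 13539670 reads on genes per library, and counting error is small for the SLRP genes except *Aspn* (29 to 147 reads). The members and lists were chosen with earlier results of these data known. The named genes were all 8 members, the other SLRP and tyrosine sulfation genes, list genes at an unadjusted p under 0.05 or otherwise the 2 with the largest difference in the list, the 3 genes most like each member, *Tgfbr2* and enamel matrix genes. *Chst1*, and the genes named for their values without library 56, were chosen after their values were seen. Alternatives covered normalization, weights, the pseudocount, a filter on low values, enamel reads and each library left out. Promoter windows were from RefSeq, GRCm38.p6, for 6 of the 8 members. Protein sequences were not used here.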

Additional observations from a re-analysis of the deposited data

Results flagged for a closer look

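*Bgn* in the library labelled Tgfbr2cko 56 was at 10.06 log2 CPM, far from the other mutant libraries, which lay between 10.93 and 11.07. The gap to the nearest library was 0.867 of the range of the group, above Dixon's 95% critical value for 4 samples. It was the only one of 18 groups of 4 to be set apart in this way, and chance sets apart about 1 in 20. In that library 19.3% of reads came from enamel matrix genes, and the part of those reads in the *Bgn* value was not tested.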

How the results depend on the processing

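Each gene was refitted under 18 alternatives, except *Aspn*, which the filter on a mean log2 of at least 3 left without a value; 129 of the 143 refits kept the direction and their side of an adjusted p of 0.05, 14 changed direction, and the smallest adjusted p was 0.164. No SLRP gene was called at an adjusted p under 0.05 under any of them. The number altered at an unadjusted p under 0.05 and 1.5-fold was 0 as reported and 1 (*Dcn*) with the enamel covariate, with enamel reads left out of totals and with library weights, and 0 to 1 with a library left out. The log2 difference of *Dcn* had an unadjusted p under 0.05 in 9 of 10 alternatives that kept all libraries, the exception being the averaging of libraries that share a title number (0.49, unadjusted p 0.0877 by limma), but in only 1 of 8 with a library left out (0.41 to 0.65). *Fmod* reversed to 0.12 with the enamel covariate and *Lum* to -0.048 with quantile normalization; the cause was not tested. With a library left out the log2 difference ranged from -0.31 to 0.022 for *Bgn*, -0.12 to 0.18 for *Lum*, -0.53 to 0.093 for *Fmod*, -0.086 to 0.51 for *Ogn*, -0.37 to 0.19 for *Aspn*, -0.077 to 0.28 for *Prelp* and -0.52 to 0.010 for *Omd*, so their signs depend on single libraries. Of the 75 related genes, none was called as reported, but 5 were with library weights (*Tsku*, *Chst13*, *Col5a1*, *Lox* and *Loxl3*), 2 with enamel reads left out of totals (*Tsku* and *Loxl3*), 2 with median centring (*Col5a1* and *Loxl3*), 1 with quantile normalization (*Col5a1*), 1 with title numbers averaged (*Chst13*), and 0 to 2 with a library left out (*Chst13* and *Lox* without control 50, *Pxylp1* without mutant 53, *Chst13* without mutant 54). The number altered was 10 to 18 with a library left out, the highest without mutant 53. Over all genes, 115 were called as reported, 258 with library weights, and 65 to 165 with a library left out (lowest without control 51, highest without mutant 53). No paired analysis was possible because the genotypes share only 1 number in the sample titles, so that a block on it would compare control 51 with mutants 54 and 55 alone. These numbers repeat within groups, and if they mark animals or litters there were 3 control and 2 mutant units; what they mark was not given in the sources used here. The summed share of reads of the SLRP genes differed by 0.0044 to 0.197 percentage points with a library left out. *Aspn* has the fewest reads (29 to 147 per library).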
